A study of Mus musculus with 20 samples.

Results

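The 2 major protamine genes Prm1 and Prm2, their neighbour Prm3, and the transition protein genes Tnp1 and Tnp2 were followed across testis RNA of mice given leukaemia cells, the drug vincristine, both or neither. The 5 genes were chosen by name from the 22066 gene symbols of the count table. All 5 had a row and passed the filter on low counts, as did 16534 symbols in all. Poly(A)-selected RNA of whole testis, labelled as mixed testicular cells, was sequenced in 20 libraries, 4 in each of 5 groups. All mice were males of the NOD scid gamma (NSG) genotype, an immunodeficient strain that accepts human cells, and were 6 weeks old at the start.

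High-VCR and Low-VCR mice received 400000 cells of a patient-derived xenograft (PDX) of B-cell acute lymphoblastic leukaemia (B-ALL) through the tail vein and then vincristine. They were told apart by high or low leukaemia infiltration of the peripheral blood. VCR mice received vincristine, and their labels name no injected cells. ALL mice received the leukaemia cells and saline, and NC mice were the normal controls, given saline. Vincristine, which acts on tubulin, was given as 3 weekly intraperitoneal injections of 0.5 mg/kg, the first on day 69. The infiltration groups were formed from a measurement and not assigned at random as far as the labels say, and the labels do not state that each library is a separate mouse.

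Library totals were 9425158 to 16357287 counts. The 12 vincristine-treated libraries differed from the 8 untreated ones in the share of counts from 13 mitochondrially encoded genes, which was 4.69 to 11.9% in treated and 1.78 to 2.60% in untreated libraries. The library VCR 1 stood apart, with the highest mitochondrial share and the lowest level of all 5 genes. NC and VCR libraries carried the library numbers 1 to 8, and engrafted libraries carried higher numbers, in a lower and an upper range with 2 libraries of each engrafted group in each. A difference between an engrafted and a non-engrafted group therefore cannot be told apart from a difference between those numbers.

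Spermatids replace most histones of their chromatin, first with transition proteins and then with protamines, small basic proteins that pack the DNA of the sperm head. Tnp1 and Tnp2 encode the transition proteins, and Prm1 and Prm2 encode the protamines, of which mouse Prm2 is made as a longer precursor. Prm3 lies in the same gene cluster, but its mouse product is acidic and was found in the cytoplasm. The RNAs are made in round spermatids, stored in a repressed form and translated later, in elongating and condensing spermatids. In whole testis RNA, fewer spermatids and less RNA per spermatid cannot be told apart.

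Prm1, Prm2, Prm3 and Tnp2 sit side by side on chromosome 16, and Tnp1 is alone on chromosome 1. Because only 4 of the 5 genes share a cluster, the 150 bases before each start site are shown. Starts and sequences are those of RefSeq for GRCm38.p6, while the counts were made on GRCm39 according to the submitters' processing notes. Genes and sequences are all on the minus strand: chr16:10796824-10796973 for Prm1, chr16:10792106-10792255 for Prm2, chr16:10790915-10791064 for Prm3, chr1:73015900-73016049 for Tnp1 and chr16:10788656-10788805 for Tnp2. Capitals mark matches to TGANNTCA, to TATAA or to TATATA on either strand. TGANNTCA is a loosened form of TGACGTCA, the cAMP response element bound by the spermatid regulator CREM.
Prm1: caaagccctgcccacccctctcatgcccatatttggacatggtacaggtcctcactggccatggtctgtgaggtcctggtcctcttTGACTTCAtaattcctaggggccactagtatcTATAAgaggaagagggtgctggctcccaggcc
Prm2: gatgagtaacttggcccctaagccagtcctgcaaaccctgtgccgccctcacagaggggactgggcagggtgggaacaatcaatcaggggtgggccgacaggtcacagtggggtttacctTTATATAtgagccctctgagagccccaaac
Prm3: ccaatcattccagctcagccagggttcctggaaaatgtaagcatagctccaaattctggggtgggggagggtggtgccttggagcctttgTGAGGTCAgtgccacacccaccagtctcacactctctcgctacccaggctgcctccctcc
Tnp1: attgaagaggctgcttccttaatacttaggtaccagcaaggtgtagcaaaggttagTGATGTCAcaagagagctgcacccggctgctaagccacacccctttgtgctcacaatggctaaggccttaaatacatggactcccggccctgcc
Tnp2: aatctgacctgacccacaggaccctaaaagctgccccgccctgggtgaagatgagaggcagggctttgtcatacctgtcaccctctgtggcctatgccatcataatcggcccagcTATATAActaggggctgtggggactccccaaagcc

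TGANNTCA was present in 3 of the 5 sequences, beginning 64 bases before the start in Prm1, 60 in Prm3 and 94 in Tnp1. No sequence held TGACGTCA, the full palindrome. A match to TATAA or TATATA was present in 3 of 5, at 32 bases in Prm1, 29 in Prm2 and 35 in Tnp2, where both motifs overlap. Prm2 also matched TATAA on the other strand, 30 bases before the start, in letters shared with its TATATA. Over 250 bases before the start, on either strand, 11.9% of 32851 RefSeq promoters held TGANNTCA, 1.55% held TGACGTCA, and 24.3% held TATAA or TATATA. Tnp1, the only gene here on chromosome 1, matched the same motif as Prm3 on chromosome 16. With a single gene on that chromosome a division by chromosome cannot be judged, and no binding was measured.

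In untreated testis these were among the most abundant RNAs. Among the tested genes in NC, Tnp2 ranked 5 of 16534 by mean CPM (counts scaled to library size, with TMM factors), Prm2 ranked 8, Prm1 41, Tnp1 73 and Prm3 1584. Per kilobase of transcript, the NC level was 8012 ± 1205 CPM for Tnp2, 5676 ± 645 for Prm2, 3785 ± 618 for Prm1, 2932 ± 853 for Tnp1 and 406 ± 94.1 for Prm3 (SD, n = 4). On that scale Tnp2 and Prm2 did not overlap with each other or with any other gene. The per-kilobase ranges of Prm1 and Tnp1 overlapped, and Prm3 was far below the rest. Together the 5 RNAs took 0.634% ± 0.165 of all counts in High-VCR, 0.801% ± 0.240 in Low-VCR, 0.294% ± 0.248 in VCR, 1.24% ± 0.0716 in ALL and 1.01% ± 0.148 in NC (SD, n = 4 each).

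**Figure D1:**
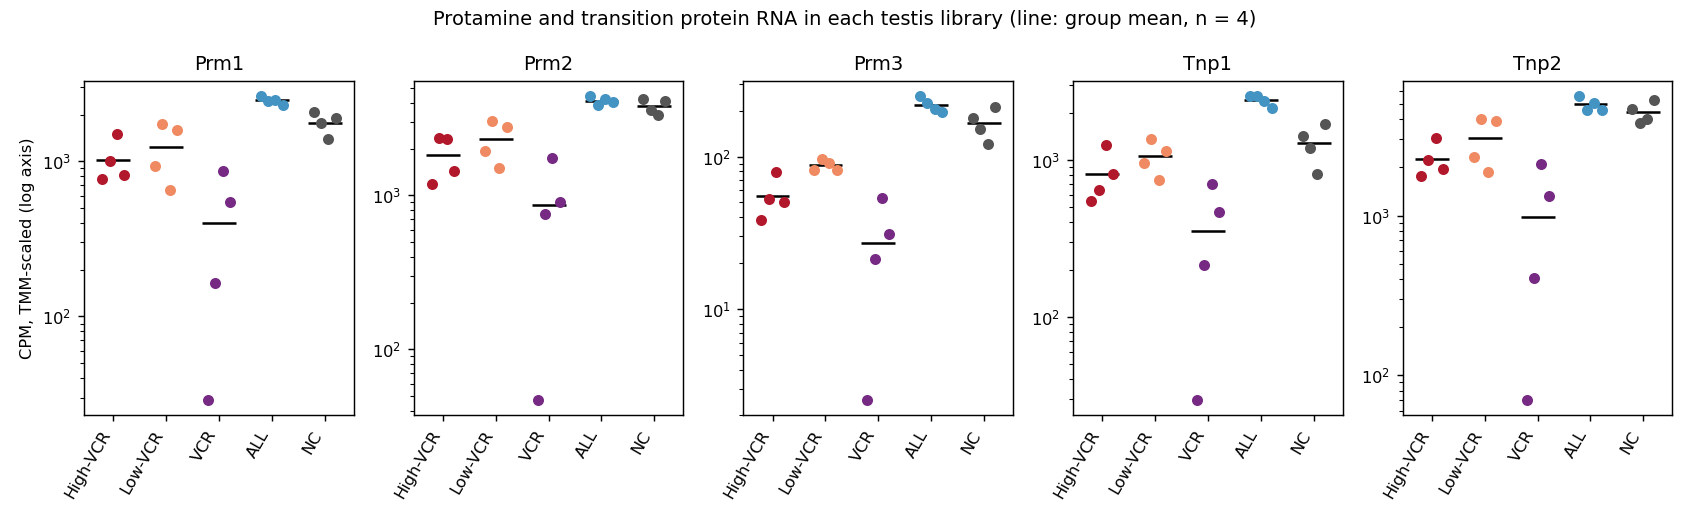
CPM (TMM-scaled, log axis) of each gene in every library, with groups on the horizontal axis, 1 point per library and a line at the group mean. VCR 1 is the lowest point in each panel, from 2.51 CPM for Prm3 to 69.6 CPM for Tnp2, and the treated groups lie below ALL in every panel.

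Vincristine without leukaemia cells was compared with no treatment to see how the drug alone was reflected in these RNAs. All 5 fell in VCR relative to NC, by 3.62-fold (Tnp1) to 6.14-fold (Prm3), in edgeR's quasi-likelihood test with Benjamini-Hochberg adjustment over all tested genes. In no gene did the VCR and NC libraries overlap. The share of all tested genes called lower in this comparison was 35.6%, and 34.2% were lower without overlap. The median log2 fold change was -2.15 over the 5 genes and 0.10 over all tested genes.

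Tnp1, the smaller transition protein gene, had 29.4, 213, 705 and 469 CPM in VCR, against 1411, 1196, 817 and 1702 CPM in NC. VCR 1 was far below the other VCR libraries, and VCR 3, the highest, came close to the lowest NC library. The log2 fold change of Tnp1 was -1.86 ± 0.57 (SE, adjusted p = 0.0071). With VCR and NC alone in the fit its adjusted p was 0.0595, and 4 of the 5 genes were called.

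Tnp2, the second transition protein, had 69.6, 404, 2094 and 1329 CPM in VCR, against 4674, 3809, 4000 and 5271 CPM in NC. Every VCR library lay below the NC range by a wide margin. Its log2 fold change was -2.19 ± 0.62 (SE, adjusted p = 0.00383).

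Prm1 had 28.8, 164, 861 and 544 CPM in VCR, against 2071, 1754, 1386 and 1889 CPM in NC. Prm2 had 46.7, 759, 1740 and 903 CPM in VCR, against 4251, 3596, 3332 and 4124 CPM in NC. In both protamine genes VCR 1 was lowest and VCR 3 highest of the VCR libraries, the order seen for the transition proteins. The log2 fold change was -2.15 ± 0.63 for Prm1 (SE, adjusted p = 0.00493) and -2.15 ± 0.60 for Prm2 (SE, adjusted p = 0.00359).

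Prm3, the gene of the acidic cytoplasmic product, had 2.51, 21.3, 53.6 and 30.96 CPM in VCR, against 180, 153, 122 and 212 CPM in NC. The value of VCR 1 rests on 33 counts, the fewest of any gene here in any library. Its log2 fold change was -2.62 ± 0.52 (SE, adjusted p = 0.000201). Whether Prm3 fell more than the other 4 genes was not tested.

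Without VCR 1 all 5 genes were still called lower, with log2 fold changes of -1.47 for Tnp1, -1.80 for Tnp2, -1.76 for Prm1, -1.75 for Prm2 and -2.23 for Prm3. The mitochondrial share moved with the comparison, at 5.66 to 11.9% in VCR and 1.87 to 2.60% in NC. With the 13 mitochondrially encoded genes left out of the counts, all 5 genes were still called lower. Any other part of the mitochondrial share in the result was not tested.

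**Figure D2:**
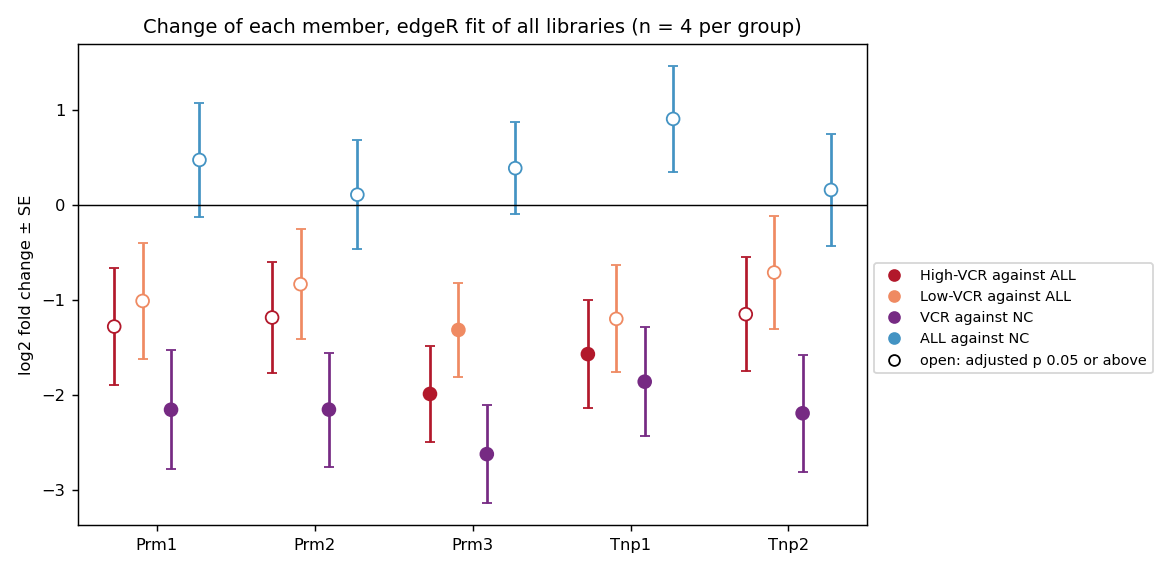
Log2 fold change of each gene with its SE in 4 comparisons, from the fit of all 20 libraries. Filled points have an adjusted p under 0.05: all 5 genes in VCR against NC, Prm3 and Tnp1 in High-VCR against ALL, and Prm3 in Low-VCR against ALL.

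Leukaemia engraftment without drug was compared with no treatment. None of the 5 genes was called in ALL against NC, where 0% of all tested genes were called and 748 genes had an unadjusted p under 0.05. With other tools DESeq2 called 19 genes and limma voom 1, none of them among the 5. Prm1 averaged 2472 ± 129 CPM in ALL and 1775 ± 290 CPM in NC, and Tnp1 averaged 2407 ± 183 CPM in ALL and 1281 ± 373 CPM in NC (SD, n = 4 each). These were the genes whose groups did not overlap, as 3.41% of all tested genes were higher in ALL without overlap. The log2 fold changes were 0.48 ± 0.60 for Prm1 and 0.91 ± 0.56 for Tnp1 (SE), with an adjusted p of 1 in both cases by edgeR. Tnp2, Prm2 and Prm3 had log2 fold changes of 0.16, 0.11 and 0.39 with overlapping groups.

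In engrafted mice, vincristine with low and with high infiltration was set against engraftment alone. Every treated library was below every ALL library for all 5 genes in both comparisons. In the fit of all 20 libraries Prm3 alone was called lower in Low-VCR, and Prm3 and Tnp1 were called lower in High-VCR. The background was 15.2% of tested genes called lower and 29.4% lower without overlap in Low-VCR, and 30.5% called lower and 29.1% lower without overlap in High-VCR. The median log2 fold change over the 5 genes was -1.28 in High-VCR and -1.01 in Low-VCR, beside medians over all tested genes of 0.16 in High-VCR and 0.08 in Low-VCR.

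Tnp1 had 547, 648, 1248 and 810 CPM in High-VCR and 958, 1359, 742 and 1148 CPM in Low-VCR, against 2541, 2546, 2386 and 2156 CPM in ALL. The highest treated library was well short of the lowest ALL library. The log2 fold change against ALL was -1.57 ± 0.57 in High-VCR (SE, adjusted p = 0.02) and -1.19 ± 0.56 in Low-VCR (SE, adjusted p = 0.0813), by edgeR. Without High-VCR 1 the call in High-VCR was lost, with an adjusted p of 0.0587.

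Tnp2 had 1779, 2218, 3038 and 1945 CPM in High-VCR and 2334, 4021, 1885 and 3931 CPM in Low-VCR, against 5587, 4591, 5104 and 4583 CPM in ALL. Low-VCR 2 and Low-VCR 4 came near the ALL range, and the other treated libraries were lower. The log2 fold change against ALL was -1.15 ± 0.60 in High-VCR (SE, adjusted p = 0.0924) and -0.71 ± 0.59 in Low-VCR (SE, adjusted p = 0.304), by edgeR.

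Prm1 had 770, 1006, 1489 and 818 CPM in High-VCR and 933, 1735, 657 and 1598 CPM in Low-VCR, against 2625, 2451, 2500 and 2312 CPM in ALL. Prm2 had 1187, 2353, 2312 and 1444 CPM in High-VCR and 1953, 3058, 1501 and 2794 CPM in Low-VCR, against 4409, 3862, 4245 and 4024 CPM in ALL. As with Tnp2, Low-VCR 2 and Low-VCR 4 were the highest treated libraries for both protamines. The log2 fold changes against ALL were -1.28 (Prm1) and -1.18 (Prm2) in High-VCR, and -1.01 (Prm1) and -0.83 (Prm2) in Low-VCR, with adjusted p between 0.0687 and 0.219 by edgeR.

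Prm3 had 38.5, 53.0, 79.1 and 50.2 CPM in High-VCR and 82.3, 96.4, 91.4 and 82.1 CPM in Low-VCR, against 249, 223, 205 and 197 CPM in ALL. The 3 groups followed one another without overlap, with High-VCR lowest. The log2 fold change against ALL was -1.98 ± 0.50 in High-VCR (SE, adjusted p = 0.002) and -1.31 ± 0.49 in Low-VCR (SE, adjusted p = 0.0341), by edgeR. The call in Low-VCR was lost when any library of either group but ALL 4 was left out.

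The spread shared by all 20 libraries included that of the VCR libraries. The biological coefficient of variation was 47.6 to 57.3% for the 5 genes, against a median of 22.7% over all tested genes. With the 12 engrafted libraries fitted alone, a choice made after seeing the data, all 5 genes were called lower in both comparisons, as were 32.8% of tested genes in High-VCR and 23.9% in Low-VCR. Adjusted p then ran from 2.43e-06 (Prm3) to 0.00186 (Prm1) in High-VCR and from 0.000106 (Prm3) to 0.0314 (Tnp2) in Low-VCR, by edgeR. The fold changes hardly moved: that of Prm1 in Low-VCR was -1.01 ± 0.30, against -1.01 ± 0.61 in the fit of all libraries (SE). With the range of library numbers as a term, all 5 genes were also called in both comparisons, as were 32.5% of tested genes in High-VCR and 22.5% in Low-VCR.

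Between the infiltration groups, none of the 5 genes was called in High-VCR against Low-VCR, where 4.69% of tested genes were called lower. The count at an unadjusted p under 0.05 was also 0 of 5 by edgeR, and 4570 over all tested genes. The log2 fold changes lay between -0.67 ± 0.49 (Prm3) and -0.27 ± 0.60 (Prm1) (SE). Prm3 was the gene without overlap, as 4.94% of tested genes were lower without overlap. In the fit of the engrafted libraries alone Prm3 was called lower in High-VCR, with an adjusted p of 0.0354 by edgeR, or 0.0482 with the range of library numbers as a term. In those fits 8.61% of tested genes were called lower, or 7.08% with the range as a term.

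Low-VCR set against VCR gave higher levels. Prm3, Tnp1 and Tnp2 were called higher, with log2 fold changes of 1.70 ± 0.50, 1.57 ± 0.57 and 1.64 ± 0.61 (SE) and adjusted p of 0.0197, 0.045 and 0.0484 by edgeR. The background was 16.7% of tested genes called higher. Prm1, at 1.62 ± 0.62, and Prm2, at 1.43 ± 0.59, had adjusted p of 0.0543 and 0.0703. Prm3 and Tnp1 had no overlap between Low-VCR and VCR, as 13.8% of tested genes were higher without overlap. These calls depended on single libraries, since 5 genes were called without VCR 1 or without VCR 3, none without VCR 2, 2 without VCR 4, 1 when any Low-VCR library was left out, and none with Low-VCR and VCR alone in the fit. High-VCR against VCR had no call among the 5, with log2 fold changes from 1.02 to 1.35, adjusted p of 0.581 or above and 0.00605% of tested genes called by edgeR. Both comparisons set engrafted against non-engrafted libraries and so coincide with the ranges of library numbers.

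The response to vincristine with leukaemia was set against the response without it through interaction terms. None of the 5 genes was called in either, where 5.07% of tested genes were called for Low-VCR and 0.00605% for High-VCR. The terms for Low-VCR were 0.66 ± 0.78 (Tnp1) to 1.48 ± 0.84 (Tnp2) on the log2 scale (SE), with adjusted p of 0.237 or above by edgeR. For High-VCR they were 0.29 ± 0.78 (Tnp1) to 1.04 ± 0.84 (Tnp2) (SE), with adjusted p of 0.97 or above. The terms are wide, and a response in engrafted mice that was smaller or equal was not told apart for any gene.

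Across the 12 treated libraries the genes kept much the same order. VCR 1, VCR 2 and VCR 4 were the 3 lowest for all 5 genes, in that order, and Low-VCR 2 was the highest for all 5. VCR 3 ranked 6 or 7 from the lowest for each gene, within the engrafted treated libraries. This order was not particular to the members. The summed level of the list of non-nuclear condensing spermatid genes, described below, had the same 3 lowest libraries and the same highest. It was 255 CPM in VCR 1, 3497 in VCR 2, 4527 in VCR 4 and 15611 in Low-VCR 2. Relative to the NC mean, Prm1 ranged from 1.62% in VCR 1 to 97.7% in Low-VCR 2, and Tnp1 ranged from 2.30% in VCR 1 to 106% in Low-VCR 2. Low-VCR 2 is an engrafted library, so its distance from NC cannot be told apart from library number. It had 1735 CPM of Prm1 and 1359 CPM of Tnp1, below the ALL means of 2472 and 2407 CPM.

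Ratios between members within a library do not depend on scaling. Each was tested by an exact two-sided permutation test of log2 ratios in VCR against NC and in Low-VCR and High-VCR against ALL, 9 tests in all, where 4 against 4 cannot go below p = 0.0286. None passed after adjustment. With 9 tests a pass needed most of them at that floor, so the adjusted result could hardly show a change in a single ratio. The ratio of Tnp2 to Tnp1 counts was 2.52 ± 0.486 in VCR and 3.62 ± 0.855 in NC (SD, n = 4 each, exact p = 0.0286, adjusted p = 0.0643). It was 2.88 ± 0.536 in High-VCR, 2.84 ± 0.450 in Low-VCR and 2.07 ± 0.178 in ALL (SD, n = 4 each), with the same exact permutation p and adjusted p in each comparison. The ratio was thus lower with vincristine in mice without leukaemia cells and higher with it in engrafted mice, with no overlap in any of the 3 comparisons. ALL and NC themselves had no overlap in this ratio, a contrast that was not tested and that cannot be told apart from library number.

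The ratio of Prm1 to Tnp1 was 1.03 ± 0.202 in VCR and 1.44 ± 0.243 in NC, with overlapping values (SD, n = 4 each, exact permutation p = 0.0857, adjusted p = 0.154). It was 1.29 ± 0.238 in High-VCR, 1.13 ± 0.241 in Low-VCR and 1.03 ± 0.0471 in ALL (SD, n = 4 each). The ratio of Prm2 to Prm1 was 1.97 ± 0.263 in Low-VCR and 1.67 ± 0.0701 in ALL, without overlap (SD, n = 4 each, exact permutation p = 0.0286, adjusted p = 0.0643). In VCR 2 it was 4.63, against 1.62, 2.02 and 1.66 in the other VCR libraries and 2.05 to 2.40 in NC. Prm2 made up 48.6% of the counts of the 5 genes in VCR 2 and 26.4 to 37.5% in each of the other 19 libraries.

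**Figure D3:**
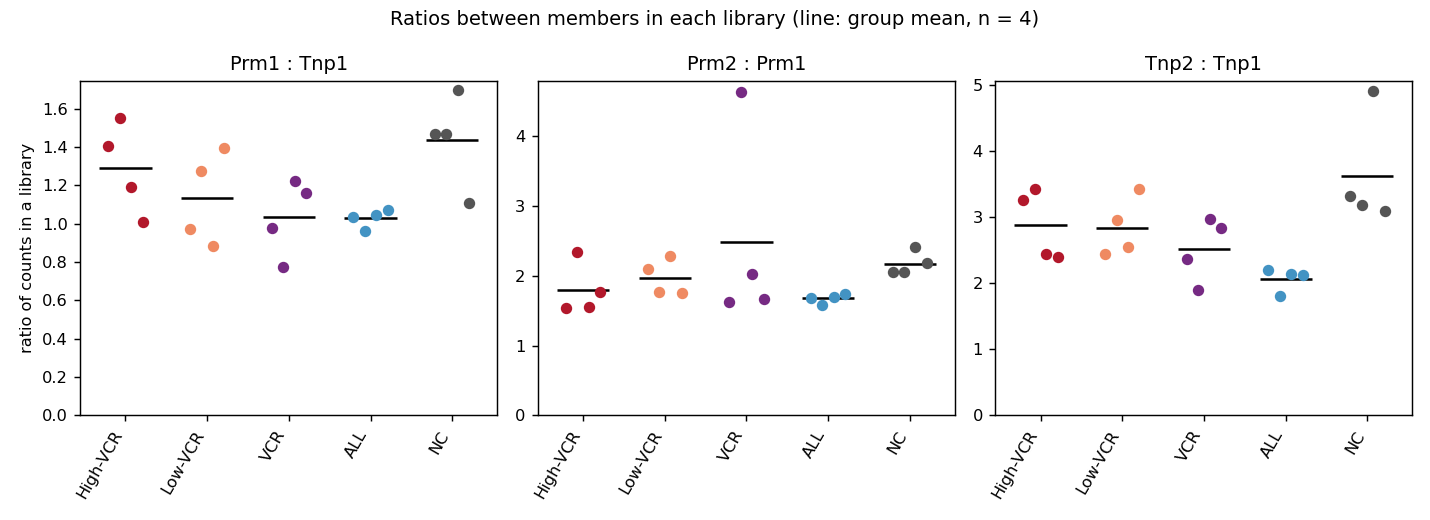
Ratio of counts of Prm1 to Tnp1, Prm2 to Prm1 and Tnp2 to Tnp1 in each library, with groups on the horizontal axis and a line at the group mean. The Tnp2 to Tnp1 ratio averages 2.07 in ALL and 3.62 in NC, and VCR 2 is alone at a Prm2 to Prm1 ratio of 4.63.

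Genes of the spermatid programme around the members were read from lists. Beside each list count below stand the shares of all tested genes called lower. These were 35.6% in VCR against NC, 30.5% in High-VCR against ALL and 15.2% in Low-VCR against ALL. With the engrafted libraries fitted alone they were 32.8% in High-VCR and 23.9% in Low-VCR. Genes of condensing spermatids that are not nuclear, such as sheath and tail proteins, had median log2 fold changes near those of the members. Other lists described below came nearer in engrafted mice. In VCR against NC the median of the list of protamine kinases and a phosphatase was -1.93, about as near to the members' -2.15 as the -2.37 of the condensing spermatid list. In High-VCR against ALL the median was -1.28 for the members and -1.27 for the histone exchange list. In Low-VCR against ALL it was -1.01 for the members and -0.93 for the transcription regulators. In VCR against NC all 16 condensing spermatid genes were called lower, with a median log2 fold change of -2.37 and a range from -2.996 to -2.05. Ropn1, a sperm tail fibrous sheath protein, averaged 64.0 ± 45.9 CPM in VCR and 477 ± 25.8 CPM in NC, and Fscn3, a testis fascin, 100 ± 80.1 CPM in VCR and 415 ± 22.2 CPM in NC (SD, n = 4 each). In High-VCR against ALL 10 of 16 were called lower (median -1.37), and in Low-VCR against ALL 0 of 16 were (median -0.81). With the 12 engrafted libraries fitted alone these counts were 16 in High-VCR and 13 in Low-VCR. Ropn1 had a log2 fold change of -1.90 in High-VCR and -0.99 in Low-VCR against ALL.

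The round spermatid list had larger log2 fold changes. All 8 genes were called lower in VCR against NC (median -4.17) and in High-VCR against ALL (median -3.81), and 4 of 8 in Low-VCR against ALL (median -1.34), or 8 of 8 in the fit of the engrafted libraries alone. Catsper3, a subunit of the sperm calcium channel, averaged 3.72 ± 2.15 CPM in VCR and 94.2 ± 2.15 CPM in NC, and 5.02 ± 1.75 CPM in High-VCR, 33.9 ± 27.3 CPM in Low-VCR and 91.3 ± 7.58 CPM in ALL (SD, n = 4 each). Actl7a, an acrosomal actin-like protein, had log2 fold changes of -2.97 in VCR against NC, and of -2.25 in High-VCR and -1.21 in Low-VCR against ALL.

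**Figure D4:**
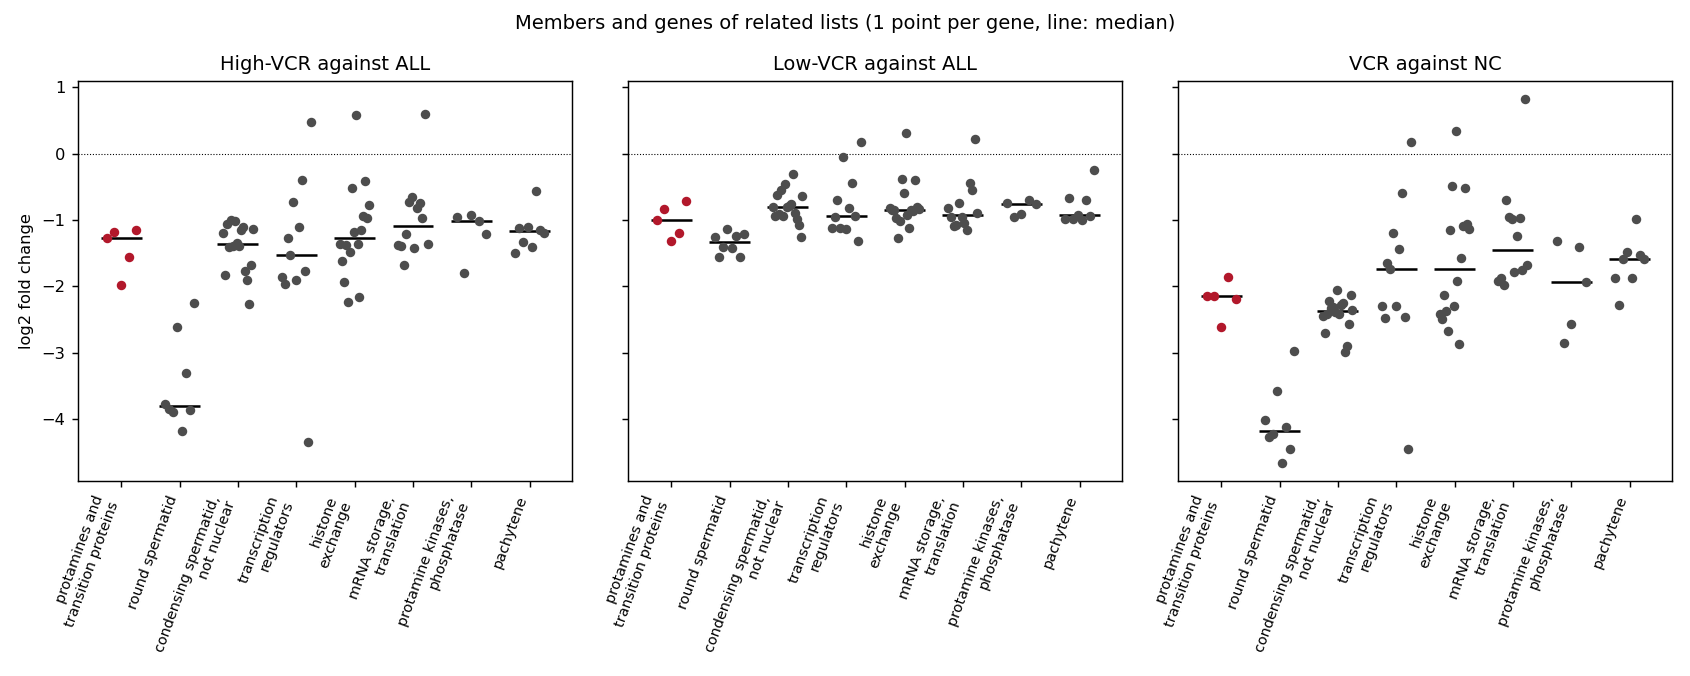
Log2 fold change of the 5 members (red) and of every tested gene of 7 related lists (grey), with 1 point per gene and a line at each median. The round spermatid list lies lowest in High-VCR against ALL and VCR against NC, with medians of -3.81 and -4.17. The members lie near the condensing spermatid list and near other lists. In High-VCR against ALL the histone exchange median is -1.27, beside -1.28 for the members.

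Relative to the round spermatid genes the members stood higher in VCR and High-VCR, as did nearly all tested genes. The log2 CPM of Prm1 minus the mean log2 CPM of the round spermatid list was 5.03 ± 1.03 in VCR and 3.41 ± 0.23 in NC, and 6.20 ± 0.39 in High-VCR, 4.51 ± 1.72 in Low-VCR and 3.96 ± 0.09 in ALL (SD, n = 4 each). VCR values lay above NC values without overlap for all 5 genes except Tnp2, as for 94.3% of all tested genes. High-VCR values lay above ALL values for all 5, as for 94.5% of all tested genes, so neither count sets the members apart. In Low-VCR they overlapped with ALL, spreading over 2.74 to 6.35 for Prm1. Low-VCR 2 and Low-VCR 4 had 5.55 and 6.35, with summed round spermatid levels of 473 and 320 CPM. Low-VCR 1 and Low-VCR 3 had 3.39 and 2.74, with 898 and 977 CPM, so the group mean describes neither pair. Against the condensing spermatid list Prm1 stood at 1.14 ± 0.64 in VCR and 1.01 ± 0.19 in NC, and Prm2 at 2.31 ± 0.19 in VCR and 2.13 ± 0.10 in NC (SD, n = 4 each), and all 5 genes overlapped between VCR and NC. In engrafted mice some members were displaced from that list. Prm3 minus the list mean was -2.79 to -2.52 in High-VCR and -2.72 to -2.26 in Low-VCR, below -2.18 to -1.98 in ALL. Tnp1 was at 0.76 to 1.10 in Low-VCR, below 1.27 to 1.47 in ALL. Of all tested genes 6.54% lay below ALL without overlap on this scale in High-VCR and 1.12% in Low-VCR. Prm2, at 2.24 to 2.68 in High-VCR and 2.07 to 2.22 in ALL, and Tnp2, at 2.59 to 2.82 in High-VCR and 2.32 to 2.51 in ALL, were higher without overlap, as were 69.8% of all tested genes. The remaining cases overlapped with ALL. These differences are descriptions, and no test was run on them.

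**Figure D5:**
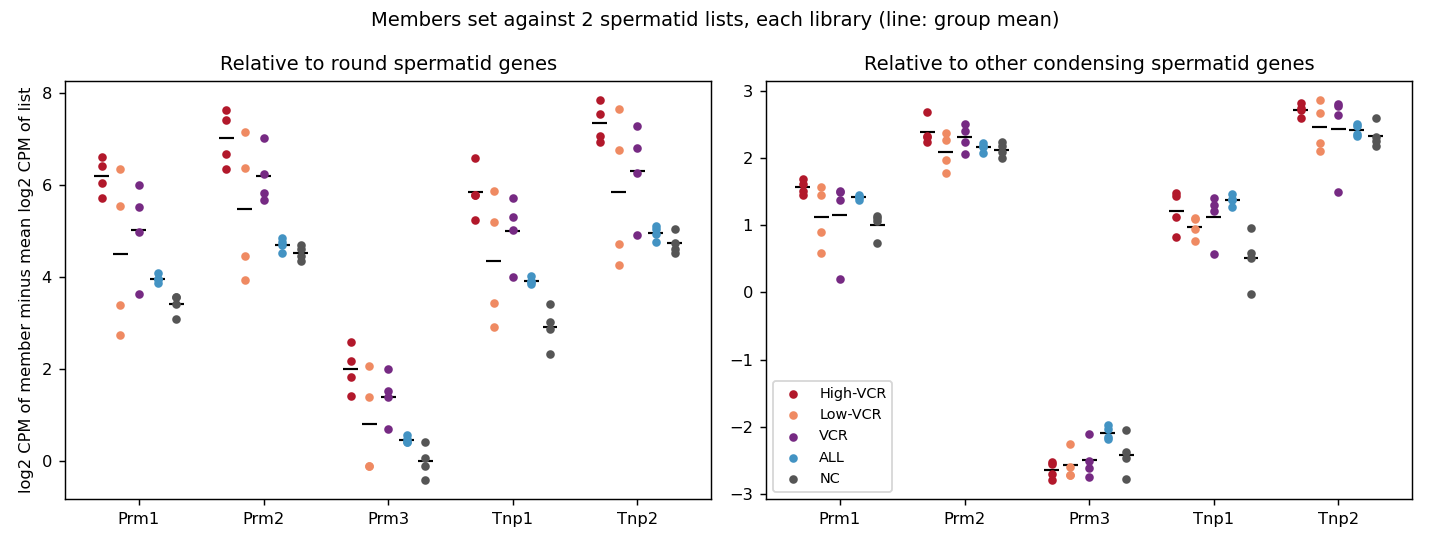
Log2 CPM of each member minus the mean log2 CPM of the round spermatid list (left) or of the non-nuclear condensing spermatid list (right), 1 point per library, with colours for groups and a line at each group mean. On the left High-VCR lies above ALL for each member, as in Prm1 with 6.20 against 3.96, and on the right Prm1 averages 1.14 in VCR and 1.01 in NC.

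Regulators of these genes were a further list. Of 11 transcription regulators of the spermatid programme, 10 were called lower in VCR against NC (median log2 fold change -1.74), 9 lower and 1 higher in High-VCR against ALL (median -1.52), and 0 in Low-VCR against ALL (median -0.93), or 6 in the fit of the engrafted libraries alone. Sox30, a spermatid transcription factor, averaged 79.1 ± 55.5 CPM in VCR and 436 ± 19.8 CPM in NC (SD, n = 4 each). Against ALL its log2 fold change was -1.76 in High-VCR and -0.93 in Low-VCR. Pygo2, a chromatin reader, had a log2 fold change of 0.17 in VCR against NC (adjusted p = 0.319, edgeR) and was called higher in High-VCR against ALL (0.48 ± 0.15 (SE), adjusted p = 0.00956, edgeR).

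Of 12 genes of mRNA storage and translation, 9 were called lower and 1 higher in VCR against NC (median -1.46), 7 lower and 1 higher in High-VCR against ALL (median -1.09), and 2 lower in Low-VCR against ALL (median -0.92), or 8 in the fit of the engrafted libraries alone. The 2 of 12 in Low-VCR is near the 15.2% of all tested genes called lower there. Paip2, which restrains poly(A)-binding protein, averaged 13.02 ± 0.96 CPM in VCR and 25.5 ± 1.77 CPM in NC (SD, n = 4 each). It was called lower in High-VCR (-0.75) and in Low-VCR (-0.44) against ALL as well. Tarbp2, an RNA-binding protein required in mice for protamine mRNA translation, averaged 2.01 ± 1.91 CPM in VCR and 3.31 ± 0.90 CPM in NC (SD, n = 4 each, adjusted p = 0.25, edgeR). Against ALL, Tarbp2 was called lower in High-VCR (-1.21, adjusted p = 0.048, edgeR) and not in Low-VCR (-1.08, adjusted p = 0.0929, edgeR).

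The histone exchange list, of testis histones and of enzymes that open or clear spermatid chromatin, had 12 of 16 genes lower and 1 higher in VCR against NC (median -1.74). It had 13 lower and 1 higher in High-VCR against ALL (median -1.27), and 5 lower in Low-VCR against ALL (median -0.85), or 11 in the fit of the engrafted libraries alone. Chd5, a chromatin remodeller of spermatids, averaged 143 ± 98.5 CPM in VCR and 1051 ± 79.9 CPM in NC (SD, n = 4 each). H2bc1, a testis H2B histone, averaged 1.24 ± 1.02 CPM in VCR and 2.79 ± 1.00 CPM in NC (SD, n = 4 each, adjusted p = 0.116, edgeR). Against ALL, H2bc1 was called lower in High-VCR (-1.49, adjusted p = 0.0482, edgeR) and not in Low-VCR (-1.01, adjusted p = 0.178, edgeR).

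The small list of protamine kinases and a phosphatase had all 5 genes lower in VCR against NC (median -1.93), 4 in High-VCR against ALL (median -1.01) and 2 in Low-VCR against ALL (median -0.76), or 5 in the fit of the engrafted libraries alone. Camk4, a kinase that phosphorylates protamine 2 in mice, averaged 5.16 ± 3.32 CPM in VCR and 37.6 ± 2.01 CPM in NC, and 10.6 ± 3.03 CPM in High-VCR, 18.9 ± 1.72 CPM in Low-VCR and 36.8 ± 2.17 CPM in ALL (SD, n = 4 each). Camk4 fell in all 3 comparisons. Tssk6, a testis-specific serine kinase, fell in VCR against NC, with a log2 fold change of -2.57, and had -0.93 in High-VCR and -0.91 in Low-VCR against ALL.

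Several of these list counts rested on single libraries. In High-VCR against ALL, leaving out High-VCR 1 or High-VCR 4 gave 6 condensing spermatid genes, 5 transcription regulators, 8 histone exchange genes and 4 mRNA storage genes called lower, and the mRNA storage count was also 4 without ALL 1, ALL 3 or High-VCR 3 and the histone exchange count also 8 without ALL 1, ALL 2 or ALL 3. In Low-VCR against ALL the round spermatid count was 0 without Low-VCR 2 or Low-VCR 4, 1 without ALL 1 or ALL 2 and 2 without ALL 3 or ALL 4. The histone exchange count there was 2 or 3 and the kinase count 0 or 1 whichever library of either group was left out, and the mRNA storage count was 1 without ALL 3, ALL 4, Low-VCR 2 or Low-VCR 3. The 1 histone exchange gene called higher in VCR against NC was lost without NC 1 or VCR 4.

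Earlier germ cells and somatic cells moved as well. Of 8 pachytene spermatocyte genes, all were called lower in VCR against NC (median -1.59), 5 in High-VCR against ALL (median -1.17, or 1 gene without High-VCR 1, High-VCR 3 or High-VCR 4) and 0 in Low-VCR against ALL (median -0.93), or 4 in the fit of the engrafted libraries alone. Pgk2, the germ cell phosphoglycerate kinase, averaged 259 ± 201 CPM in VCR and 1262 ± 47.2 CPM in NC, and Mybl1, a regulator of meiosis, 23.8 ± 16.42 CPM in VCR and 47.2 ± 10.9 CPM in NC (SD, n = 4 each). Of 8 spermatogonial genes 3 were called higher and 1 lower in VCR against NC, and 1 higher and 6 lower with libraries scaled to the Sertoli list. The shares of all tested genes in that comparison were 42.1% higher and 35.6% lower, so the 3 called higher do not set this list apart. Against ALL, 5 were called higher in High-VCR, and 5 higher and 1 lower in Low-VCR. There 42.4% and 36.4% of all tested genes were called higher. Kit, the receptor of differentiating spermatogonia, was called higher, with 95.8 ± 13.1 CPM in VCR and 11.4 ± 1.09 CPM in NC (SD, n = 4 each). Lin28a, an RNA-binding protein of undifferentiated spermatogonia, had 2.08 ± 0.50 CPM in VCR and 1.77 ± 0.67 CPM in NC (SD, n = 4 each, adjusted p = 0.489, edgeR). Against ALL, Lin28a was called higher in High-VCR (0.76, adjusted p = 0.0411, edgeR) and in Low-VCR (0.88, adjusted p = 0.0288, edgeR).

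All 12 Sertoli, 7 Leydig and 8 macrophage markers were called higher in each of VCR against NC, High-VCR against ALL and Low-VCR against ALL, where the share of all tested genes called higher was 42.1%, 42.4% and 36.4%. Their summed levels were 6984 to 10858 CPM in VCR and 1580 to 1845 CPM in NC for Sertoli cells, 6771 to 15566 CPM in VCR and 1160 to 1919 CPM in NC for Leydig cells, and 622 to 1014 CPM in VCR and 120 to 138 CPM in NC for macrophages. Among them Shbg and Rhox5 (Sertoli), Nr5a1 and Lhcgr (Leydig), and C1qa and Adgre1 (macrophage) had log2 fold changes in VCR against NC of 2.82, 0.94, 2.87, 2.47, 3.23 and 1.96. Against ALL the summed Sertoli level was 5469 to 9352 CPM in High-VCR and 5212 to 6841 CPM in Low-VCR, against 1477 to 1569 CPM in ALL. The part of this shift between cell types in the levels of the members was not tested. With libraries scaled to the Sertoli list, which sets those markers level by construction, 1 Leydig and 5 macrophage markers were still called higher and 2 macrophage markers lower in Low-VCR against ALL. On that scaling the members' log2 fold changes were -3.53 (Tnp1) to -4.31 (Prm3) in VCR against NC, beside a median of -1.74 over all tested genes.

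For each member the genes of most similar pattern were found among 15477 tested genes of at least 1 CPM, as the root mean square difference of centred log2 CPM over 20 libraries. The genes nearest to Prm1 were Tnp2 (0.17), P3r3urf (0.24) and Hspa1l (0.26), and those nearest to Tnp2 were Prm1 (0.17), Tex37 (0.19) and Tmem269 (0.21). Prm2 had closer partners outside the family, with Spem1 at 0.07, Dnajb8 at 0.10 and Garin1a at 0.10. The nearest to Tnp1 were Spata3 (0.24), P3r3urf (0.24) and Prm1 (0.29), and those to Prm3 were Fam166a (0.20), Iqcf5 (0.21) and Iqcf3 (0.21). The median over all genes was 1.51 to 1.59. Prm3 differed from the other members by 0.37 to 0.44, and they ranked 338 to 565 in its order. These values describe 20 libraries that share 5 treatments.

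The other genes beside the members did not all follow them. Of all tested genes 35.6% were called lower and 42.1% higher in VCR against NC. So few neighbours cannot show whether the change was confined to the members. In the RefSeq order, the cluster of Prm1, Prm2, Prm3 and Tnp2 is flanked by Dexi, Clec16a and Socs1 and by Rmi2, Litaf and Snn. In VCR against NC, Litaf was called higher (log2 fold change 2.96) and Snn lower (-1.49), whereas Dexi (0.72), Clec16a (-0.28) and Socs1 (-0.65) were not called, and Rmi2 was below the count filter. Tnp1 is flanked by Rpl37a, Igfbp2 and Igfbp5 and by Tns1, Rufy4 and Cxcr2. Igfbp2 was called higher (1.72) and Tns1 lower (-2.06), Rpl37a (0.23), Igfbp5 (1.30) and Rufy4 (0.31) were not called, and Cxcr2 was below the filter.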

How the data were processed

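Per the file headers and values, the deposited table holds whole-number counts per gene symbol, which the authors did not normalise. The submitters' processing notes name Trimmomatic 0.39, STAR 2.7.10b, featureCounts of Subread 2.0.3, DESeq2 1.36.0 and GRCm39 (mm39). The annotation, the strand setting and the handling of human reads are not given in the sources used here. RNA was extracted with TRIzol and made into directional oligo-dT libraries, per the labels' protocols.

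Samples were grouped by their titles. Counts were fitted in R 4.3.3 with edgeR 4.0.16 (TMM, filterByExpr with a minimum count of 10, robust glmQLFit of 5 group means over 20 libraries, 15 residual degrees of freedom), with a threshold of 0.05 on the p adjusted by Benjamini-Hochberg. Each SE is the log2 fold change divided by the root of F. Of the 22066 symbols, 1207 had no count. Alternatives included other scalings and filters, DESeq2 1.42.0, limma 3.58.1 voom, fits of fewer groups and leaving out each library. The fit was checked on simulated counts. Log2 CPM used a prior count of 1, ratios added 0.5 to each count, and lengths were the longest GENCODE transcript of each gene.

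The members and the 11 lists (111 genes) were chosen with earlier results of these data known. From each list the text names the genes with the smallest and the largest adjusted p in VCR against NC, and for each member the 3 nearest named genes in pattern and the 3 flanking genes on each side. Replicate libraries of a group differed by more than counting noise. P-values measure the spread between libraries, which may be technical where libraries are not separate mice.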

Additional observations from a re-analysis of the deposited data

Results flagged for a closer look

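A gap test for a library that stands apart from the other 3 of its group was run on 45 groups of values (levels and ratios of the members), and chance marks about 1 in 20 groups. It marked 2, both in the log2 ratio of Tnp2 to Tnp1. In ALL, ALL 2 was lowest at 0.85, with a gap of 0.83 of the group's range. In NC, NC 3 was highest at 2.29, with a gap of 0.85 of the group's range, and its Tnp1 level of 817 CPM was the lowest of the NC libraries.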

How the results depend on the processing

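All 5 genes were called lower in VCR against NC under every alternative except the fit of VCR and NC alone (4 called), and none in ALL against NC, High-VCR against VCR or either interaction under any. In Low-VCR against ALL, where 1 was called, the count was 0 by library size alone or limma voom, 2 with DESeq2 size factors, DESeq2 or the upper range of library numbers alone, and 5 with Sertoli scaling, the groups compared alone, the 12 engrafted libraries, or these with the library-number range. In High-VCR against ALL, where 2 were called, it was 1 by voom, 3 with the upper range of library numbers alone, 4 with DESeq2 size factors or the lower range of library numbers alone, and 5 with Sertoli scaling, DESeq2, the groups compared alone, the engrafted libraries, or these with the range. In High-VCR against Low-VCR (0) it was 1 in the engrafted fit with or without the range. In Low-VCR against VCR (3) it was 1 with Sertoli scaling or no filter, 4 with upper-quartile scaling, 5 by DESeq2 or voom and 0 for the groups compared alone. Leaving out 1 library gave 0 to 1 in Low-VCR against ALL, 1 to 2 in High-VCR against ALL and 0 to 5 in Low-VCR against VCR. With Sertoli scaling most tested genes were called lower against ALL, so the 5 called there do not set the members apart. Of 16534 genes, 13222 were called in Low-VCR, 491 of them higher, and 13378 in High-VCR, 861 of them higher. Where no value shows it, the cause was not tested.

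The log2 ratio of Prm2 to Prm1 changed sign when 1 library was left out. It was 0.05 in VCR against NC, with -0.30 (without VCR 2) to 0.20 when leaving out a library, and 0.08 in High-VCR against ALL, with -0.049 (without High-VCR 2) to 0.15. The log2 fold change of Tnp1 changed sign in High-VCR against Low-VCR, to 0.053 with the upper range of library numbers alone, and in the High-VCR interaction, where leaving out a library gave -0.10 (without VCR 1) to 0.87. In VCR against NC the median log2 fold change of all tested genes was 0.10, and it was -0.02 with DESeq2 size factors, 0.27 by upper quartile, 0.49 by library size and -1.74 with Sertoli scaling. Genes called higher were 6960 of 12851, and 8309 of 12789 by library size and 1268 of 13630 with Sertoli scaling. Samples with the same replicate number had correlations of deviations from -0.38 to 0.53 over the 7 comparisons, in none of which all 4 pairs were above 0.1 or every sample correlated best with its own number, so the numbers were not treated as pairing. The replicate block left each count of members called as it was (5 in VCR against NC, 1 in Low-VCR and 2 in High-VCR against ALL, 3 in Low-VCR against VCR), while genes called in all fell to 294 with the block, against 1292, in High-VCR against Low-VCR and to 9, against 839, in the Low-VCR interaction. Prm3 in VCR 1 rests on 33 counts, where depth limits precision.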
